A study of Mus musculus with 2 samples.

Results

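The regulatory factor X (Rfx) genes of the mouse were followed in lung lobes that carry or lack a working copy of Foxj1. The set holds 7 genes, taken by name from the array: Rfx1, Rfx2, Rfx3, Rfx4, Rfx5, and the genes of 2 non-Rfx subunits of the Rfx5 complex, Rfxank and Rfxap. They are read by 13 of the 41167 gene probes of the array, and all 7 are among the 21171 genes that stood well above background in at least 1 channel. Rfx proteins bind a palindromic DNA element called the X-box through a winged-helix domain. Rfx1, Rfx2 and Rfx3 are known as activators of ciliary genes, both for the sensory cilium found on most cells and, together with the forkhead factor Foxj1, for the beating cilia of the airway. Rfx5 works elsewhere: with Rfxank and Rfxap it forms the complex that sits on the promoters of class II antigen presentation genes.

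The material came from 2 male littermates at E16.5 on an Sv129/CD-1 hybrid background, 1 heterozygous (Foxj1 +/–) and 1 homozygous (Foxj1 –/–) for the Foxj1lacZ allele. Both embryos therefore carry that allele, and no wild-type lung is included here. The titles speak of lung lobes and the source names of lung epithelium. No step that separates epithelium is described, so the RNA is treated as that of whole lobes. Heterozygous RNA was labelled with Cy3 and homozygous RNA with Cy5, both were hybridised to 1 two-colour array, and no array with exchanged dyes was used. Genotype, embryo and dye cannot be told apart. With 1 lung per genotype there is no replicate check, so the values below carry neither a test nor a p-value. A ratio is the log2 of the homozygous over the heterozygous signal throughout. Errors after ± come from the error model of the scanner software and cover spot and channel noise only. They belong to the software's own log ratio and are set here beside the reprocessed ratio, which can differ from it. For a gene value, the error is the median of its probes' errors and not the error of the gene median.

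Each gene is measured through 60-base oligonucleotides, and what a ratio says depends on which stretch of the transcript the oligonucleotide reads. The following 7 probes, 1 for each gene, are shown so that the stretch behind a ratio can be looked up; the other 6 are given by position. They are the sequences in the array files, 5′ to 3′, and no base is marked.
Rfx1, chr8:86971313-86972797: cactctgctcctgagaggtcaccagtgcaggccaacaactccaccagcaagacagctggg
Rfx2, chr17:56461450-56461509: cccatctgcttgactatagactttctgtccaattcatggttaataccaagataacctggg
Rfx3, chr19:27892086-27892145: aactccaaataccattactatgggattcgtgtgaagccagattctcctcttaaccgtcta
Rfx4, chr10:84298187-84298644: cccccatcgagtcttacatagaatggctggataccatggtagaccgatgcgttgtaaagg
Rfx5, chr3:95044585-95044644: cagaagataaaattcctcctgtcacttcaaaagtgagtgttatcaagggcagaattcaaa
Rfxank, chr8:73063653-73064072: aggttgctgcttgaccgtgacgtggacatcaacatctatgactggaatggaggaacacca
Rfxap, chr3:54892426-54892485: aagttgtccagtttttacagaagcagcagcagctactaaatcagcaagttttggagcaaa
Positions are those of the array files on mm8. Rfx2, Rfx3, Rfxank and Rfxap lie on the minus strand and Rfx1, Rfx4 and Rfx5 on the plus strand. The Rfx1, Rfx4 and Rfxank probes span 1485, 458 and 420 bases of genome, so each crosses at least 1 intron.

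The targeted gene was lower in the homozygous lung. The single Foxj1 probe (chr11:116146990-116147049) had log2 levels of 9.53 in the heterozygous and 7.61 in the homozygous channel, a ratio of −1.92 ± 0.30 or 3.78-fold lower. Whether the allele deletes the stretch this probe reads is not known here, so the value does not by itself check the labels. None of the 7 Rfx genes came near this change. Their ratios ran from −0.19 to 0.30 with a median of −0.01, 5 of 7 lay below 0, and 0 of 7 were 2-fold lower or 2-fold higher. Across the array 1.88% of genes passed 2-fold downwards and 0.576% upwards, 50.4% lay below 0, and the median was −0.003. With median centring, where each ratio is set against the median ratio of the array and no loess curve is used, the split turned round, to 1.43% lower and 3.42% higher. At a threshold of 1.5-fold the count was still 0 of 7, against 5.87% of all genes lower and 2.1% higher. With 7 genes, counts of 0 are what these background shares would usually give, so they set the 7 apart from nothing. The central 95% of all genes ran from −0.90 to 0.54, and all 7 lay inside it. In bulk RNA, fewer cells of a type and less RNA per cell cannot be told apart.

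**Figure D1:**
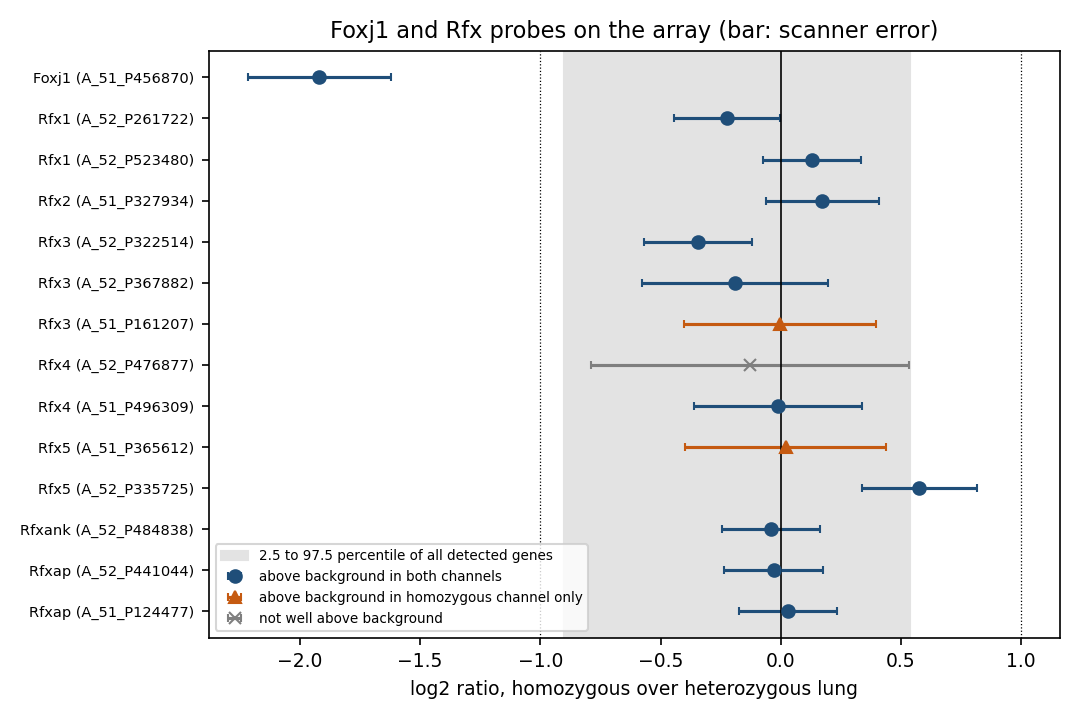
Log2 ratio of homozygous over heterozygous lung for the Foxj1 probe and the 13 probes of the 7 Rfx genes, with bars of 1 scanner error, a grey band for the central 95% of all detected genes and dotted lines at 2-fold. Foxj1 stands at −1.92, while the Rfx probes lie between −0.34 and 0.58.

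Rfx1, Rfx2 and Rfx3 are the members known to act on ciliary genes. Rfx3, whose loss in mice is known to shorten cilia and disturb left-right asymmetry, had the lowest ratio of the set. Its 3 probes lie at different places of the genome. The brightest was named through its gene symbol and belongs to a separate cDNA entry, while the others were named through the RefSeq transcript. Whether all 3 read the same transcript is not known here. The probe at chr19:27871453-27871512 had levels of 7.96 (heterozygous) and 7.62 (homozygous) and a ratio of −0.34 ± 0.22. The probe at chr19:27834368-27834427 had levels of 6.86 and 6.67 and a ratio of −0.19 ± 0.39. The probe shown above, at chr19:27892086-27892145, had levels of 6.71 and 6.71 and a ratio of −0.003 ± 0.40, and only its homozygous signal was well above background. The homozygous level was thus the lower one at both probes measured in both channels, and the ratios of the 3 probes lay within their errors of each other. The probe at −0.19, which sets the gene value, was dim. Its signal was 2.88 times background in the heterozygous and 2.22 times in the homozygous channel. Its ratio lies inside its error and gives no direction by itself. The gene value was −0.19 ± 0.39, with 24.7% of all genes at or below it. With the log ratio computed by the scanner it was −0.48, and it was below 0 under all 10 other ways of processing that were run. These are not separate checks, since all use the same array. Without a filter on dim probes, with outlier spots kept and with the file's names, the value equalled the main one. The series matrix repeated the scanner value.

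Rfx2, required in the testis for flagellum formation and a close relative of Rfx3, pointed the other way within its error. Its probe (chr17:56461450-56461509, minus strand) had levels of 7.40 in the heterozygous and 7.57 in the homozygous channel, a ratio of 0.17 ± 0.24. A second probe at chr17:56514842-56514901 carries no gene name in the array files and so falls outside the set. Its description calls it regulatory factor X, 2, and its clone number is a synonym of Rfx2 in the RefSeq gene table. It had levels of 7.07 and 7.05 and a ratio of −0.02 ± 0.28. With median centring the Rfx2 value was 0.13, below the median of all genes, which that setting puts at 0.22. The 2 probes together give no direction for Rfx2.

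Rfx1, a broadly expressed member, was split between its probes. The intron-crossing probe shown above had levels of 7.92 and 7.70 and a ratio of −0.22 ± 0.22. The probe at chr8:86986898-86986957 was brighter, with levels of 10.28 and 10.41 and a ratio of 0.13 ± 0.20. The gene value, −0.05 ± 0.21, is the middle of 2 opposite signs. It changed to 0.24 under median centring, where the median of all genes was 0.22. For scale, the pooled SD between probes of a gene was 0.27 over 7144 genes.

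Rfx4, known from the developing brain and the testis, was at the edge of detection. The probe at chr10:84335518-84335577 had levels of 6.87 and 6.86 and a ratio of −0.01 ± 0.35. The intron-crossing probe shown above was not well above background in either channel, at levels of 6.55 and 6.42. The lowest probe well above background anywhere on the array stood at 6.62 in the heterozygous and 6.32 in the homozygous channel, so the Rfx4 signal lies close to these limits. With the scanner software's log ratio the Rfx4 value was 0.41 and with median centring −0.26. Neither a level nor a direction can be read for Rfx4 at this signal.

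**Figure D2:**
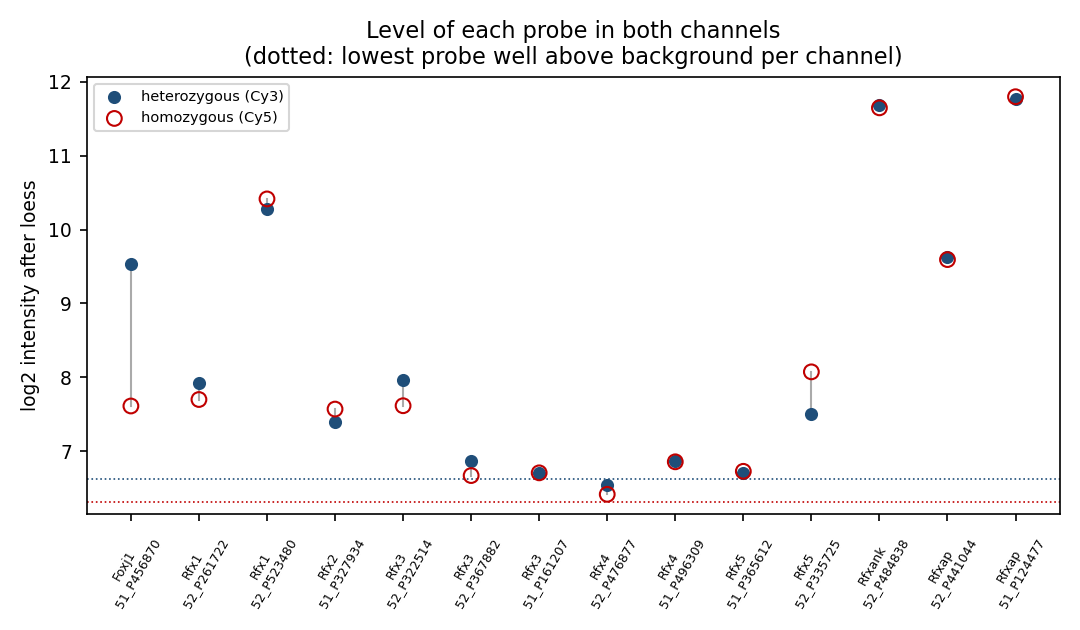
Log2 intensity after loess of each probe in the heterozygous (filled) and homozygous (open) channel, with dotted lines at the lowest probe well above background in each channel (6.62 and 6.32). The pairs lie close together for the Rfx probes and far apart for Foxj1, at 9.53 and 7.61; probes of different genes are not comparable in level.

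In the class II complex, Rfxank and Rfxap gave signals far above background, while Rfx5 was dim. Rfxank, an ankyrin-repeat subunit, was read by 1 probe, shown above, with levels of 11.69 in the heterozygous and 11.65 in the homozygous channel and a ratio of −0.04 ± 0.20. The first Rfxap probe, also shown above, had levels of 11.77 and 11.80 and a ratio of 0.03 ± 0.20. The second Rfxap probe, at chr3:54891251-54891310, had levels of 9.62 and 9.59 and a ratio of −0.03 ± 0.20. Homozygous and heterozygous levels thus coincided within 0.04 at all 3 probes. Around the log ratio computed by the scanner, a 95% interval from its error left room for a decrease of up to 1.37-fold and an increase of up to 1.27-fold for Rfxank. For the first Rfxap probe the corresponding limits were 1.28-fold and 1.36-fold. These limits take in neither the embryo nor the dye. With median centring both genes moved up, to 0.53 for Rfxank and 0.50 for Rfxap, a setting in which the median of all genes also rose to 0.22.

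Rfx5, the DNA-binding subunit of that complex, had the highest ratio of the set, and it rests on 1 probe. The probe at chr3:95046025-95046084 had levels of 7.50 in the heterozygous and 8.08 in the homozygous channel, a ratio of 0.58 ± 0.24 or 1.49-fold higher. The probe shown above had levels of 6.71 and 6.73 and a ratio of 0.02 ± 0.42. Only its homozygous signal was well above background, and the probe shows no difference beyond its error. The gene value was 0.30 ± 0.33, and 89.8% of all genes lay at or below it. Under the 10 other ways of processing it ran from 0.17 with median centring to 0.58 with the brightest probe. The value of 0.17 lies below the median of all genes under that setting, 0.22, so the direction relative to other genes was not kept there. Of the 12 member probes well above background in at least 1 channel, 2 had a scanner log ratio whose 95% interval left out 0, the brighter Rfx5 probe and the brighter Rfx3 probe. Over the array 25.7% of such probes did, so the share among the members is no larger.

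The remaining Rfx genes of the array are not in the set and stand beside it for comparison. Rfx6, a factor of pancreatic endocrine cells, was not well above background at either of its 2 probes. Rfx7 had 3 measured probes, at −0.59 ± 0.21 (levels 10.66 and 10.07), −0.29 ± 0.21 (9.13 and 8.84) and 0.21 ± 0.26 (7.16 and 7.37). The 2 brighter probes were lower in the homozygous channel and the dimmest was higher, so the probes disagree in sign. Rfx8 was detected only in the homozygous channel, with a ratio of 0.04 ± 0.50.

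**Figure D3:**
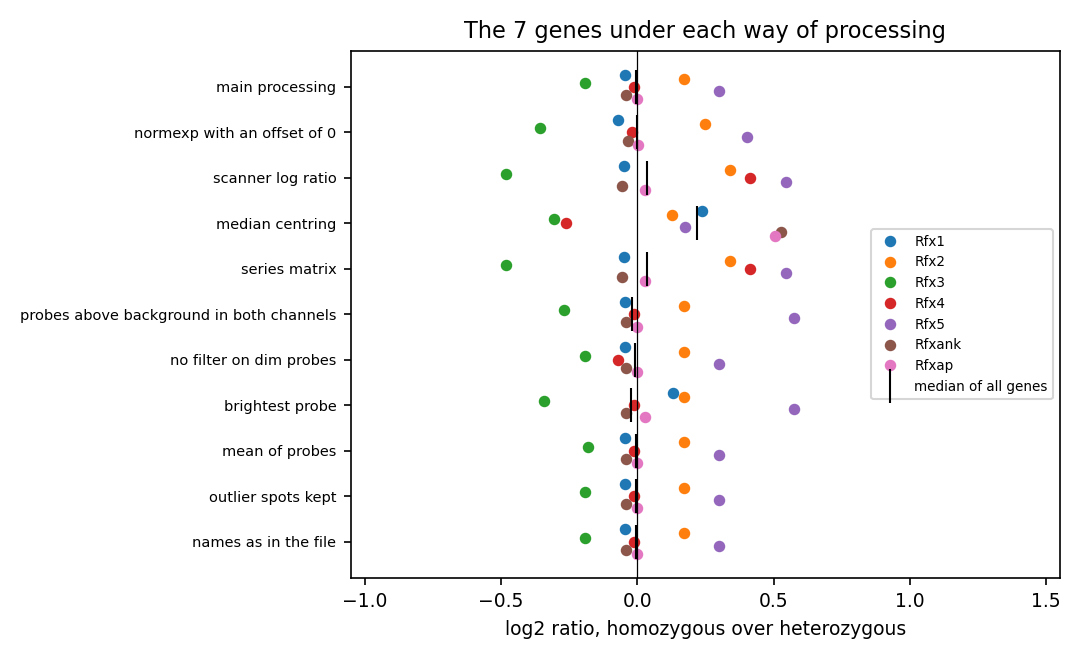
Log2 ratio of each of the 7 Rfx genes (points) and the median of all genes (black bar) under the main processing and the 10 alternatives. Rfx3 lies to the left of the black bar in every row. Rfx2 and Rfx5 lie to the right of it except with median centring, where the bar stands at 0.22 and they stand at 0.13 and 0.17.

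Other regulators of multiciliated cells were compared next. Of 12 listed partners of Foxj1 and Rfx, 10 were detected, with a median of −0.18 against −0.003 for all genes. Only Foxj1 itself was at least 2-fold lower and 0 were 2-fold higher, against the shares of 1.88% and 0.576% given above. Deup1, the scaffold on which multiciliated cells multiply their centrioles, followed at −0.78 ± 0.23, and Tfdp1, a partner of E2f factors, stood highest at 0.42 ± 0.21. The Rfx genes and most of these regulators thus had small ratios on an array where multiciliated cell markers were low. All 8 listed markers of multiciliated cells were at least 2-fold lower, between −3.20 and −1.17, and the log2 of their summed level was 14.75 in the heterozygous and 12.52 in the homozygous channel. These markers include the targeted gene Foxj1 itself, and Tekt1, Rsph1 and Cfap126 are counted again in the motile cilium list below. The marker lists were chosen with earlier results of these data known, so their counts are descriptions only. Markers of other cell types were low as well. Of 5 club and secretory cell markers 4 were at least 2-fold lower, among them Scgb3a1 (−3.19 ± 0.38) and Scgb1a1 (−2.47 ± 0.31), with summed log2 levels of 17.65 and 16.29. Of 5 cardiac muscle markers 4 were at least 2-fold lower, with Myl7 at −3.52 ± 0.39 and summed log2 levels of 15.27 and 13.75. Of 5 neuroendocrine markers 2 were, with Grp at −1.78 ± 0.26 and sums of 11.93 and 10.60, and of 5 erythroid markers 1, Alas2 at −1.73 ± 0.26, with sums of 17.74 and 17.65. The 8 markers of lung epithelium as a whole were detected in both channels, 4 of them below 0 and 1, the surfactant gene Sftpb, at least 2-fold lower at −1.72 ± 0.26. Their summed log2 levels were 18.20 and 18.27. The surfactant gene Sftpc was the largest part of both sums, at 17.09 and 17.41. In the lists for mesenchyme, endothelium, and neurons and Schwann cells 0 genes were 2-fold lower or higher. The part of any of these cell types in the Rfx values was not tested.

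Ciliary genes that Rfx factors are known to serve were described as 2 lists, for the motile and the primary cilium. Of 24 listed genes of the motile cilium, 21 were detected, with a median of −1.12. All 21 had ratios below 0, against 50.4% of all genes. Of the 21, 11 were at least 2-fold lower and 0 higher, against 1.88% and 0.576% of all genes. The list was chosen with earlier results of these data known, so its counts describe these genes and are no independent support. The count was 17 of 21 with the scanner log ratio or the series matrix, and 6 of 12 with the gene names in the file. The 11 were the small axonemal protein gene Cfap126 (−2.74 ± 0.33), the nexin-dynein regulatory complex scaffold Drc1 (−2.28), the dynein light intermediate chain Dnali1 (−2.23), Enkur (−2.03), the tektins Tekt2 (−1.95), Tekt4 (−1.41) and Tekt1 (−1.37), the spoke genes Rsph1 (−1.17) and Rsph9 (−1.12), Ak7, and Rsph4a. The 2 probes of Ak7 stood at −2.69 and 0.16. Rsph4a, detected only in the heterozygous channel, was at least 3.23-fold lower. Stk36, a kinase required for the central pair, was the highest at −0.31 ± 0.21. Among genes known as direct Rfx3 targets, singled out after their values were seen, the dynein heavy chain gene Dnah11 stood at −0.35 ± 0.21 and Dnah9 at −0.61 ± 0.24, with Dnah9 probes at −1.15 and −0.08.

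In the list for the primary cilium, which holds genes for intraflagellar transport, the BBSome and the transition zone, 31 of 32 genes were detected. The median was −0.07 and 20 of the 31 lay below 0, against 50.4% of all genes. Of the 31, 0 were 2-fold lower or higher, against 1.88% and 0.576% of all genes, so these counts lie near the background. Ift27 was the lowest at −0.45 ± 0.21 and Bbs2 the highest at 0.52 ± 0.21. The median changed sign, to 0.26, with median centring, a setting in which the median of all genes was 0.22. The lists overlap in their values, since the motile genes Stk36 and Dnah11 (−0.31 and −0.35) lie above Ift27. The difference between the motile and the primary list was not tested, as genes are not replicates.

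**Figure D4:**
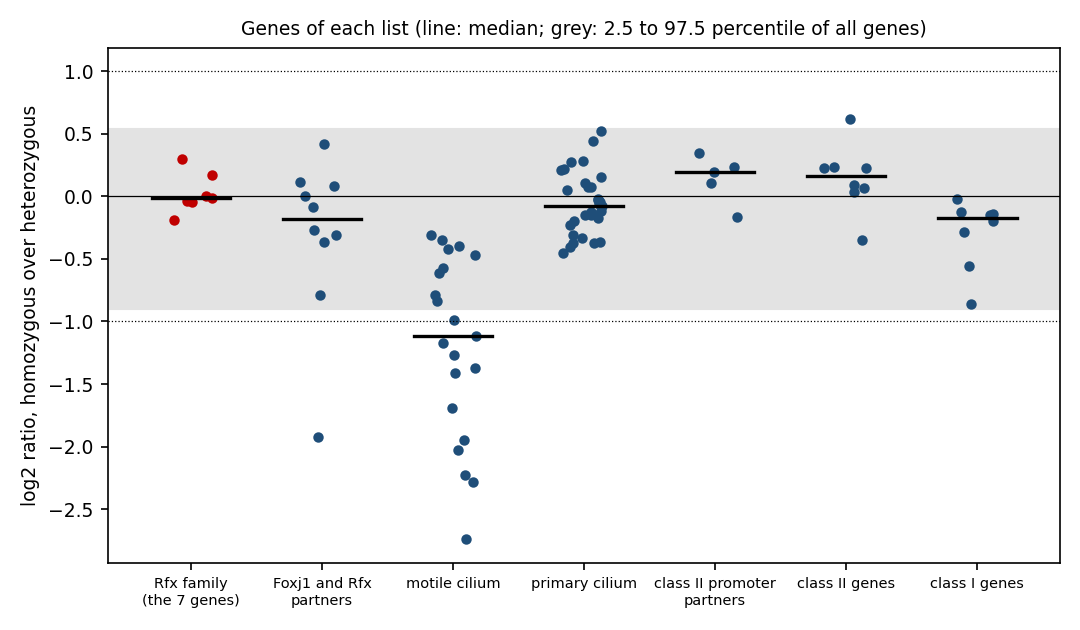
Log2 ratio of homozygous over heterozygous lung for the 7 Rfx genes (red) and the detected genes of 6 lists (blue), each point 1 gene, with list medians as black lines and a grey band for the central 95% of all genes. Medians were −0.01 for the Rfx genes, −1.12 for motile and −0.07 for primary cilium genes; Rsph4a is drawn at its measured ratio although it was dim in the homozygous channel.

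Class II antigen presentation genes, the known targets of Rfx5, Rfxank and Rfxap, were measured in the same lungs. Of 10 listed genes 8 were detected, with a median of 0.16, 1 below 0, and 0 at least 2-fold lower or higher. Over all genes 50.4% lay below 0, 1.88% were 2-fold lower and 0.576% higher. Counts of 0 past 2-fold in lists this short lie near these shares. H2-Aa, a class II alpha chain, was the highest at 0.62 ± 0.23 with probes at 0.55 and 0.68, and H2-DMb1, a chain of the peptide-loading factor, the lowest at −0.35 ± 0.21. H2-Aa was the only gene of this list past 1.5-fold, against 2.1% of all genes that were 1.5-fold higher. Of 6 partners at class II promoters, 5 were detected, from −0.17 ± 0.24 for the coactivator Ciita to 0.35 ± 0.24 for the CCAAT-binding subunit Nfya, and 0 differed 2-fold. The 8 class I genes, which share part of this promoter machinery, all lay below 0, against 50.4% of all genes, with a median of −0.17. Psmb8, an immunoproteasome subunit, was the lowest at −0.86 ± 0.22 and Tap1 the highest at −0.02 ± 0.26, and 0 differed 2-fold. With median centring the class I median was 0.12. Its sign thus changed, but it stayed below the median of all genes under that setting, 0.22. All 10 listed leukocyte and antigen presenting cell markers were detected in both channels, from −0.44 to 0.41, with summed log2 levels of 13.61 and 13.82. Their part in the class II values was not tested.

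Promoter sequence was searched for the letters these proteins read. The X-box is made of 2 inverted half-sites, and the half-site GTTGCC was looked for on both strands of RefSeq promoter windows (GRCm38.p6, 250 bases before to 50 after the start of a gene). This was the second X-box pattern tried, and both were chosen with the ratios known. The first was a longer pattern spanning both half-sites and their spacer, which is rarer, and it matched in none of the member windows; its search was replaced because the pattern could not be spelled out here. The matches below, in members and in other genes, therefore hold for the short half-site and not for the full X-box. So short a half-site is common by itself, and it occurred in 12.5% of 32851 windows. Of the 6 members with a window it occurred in 3, and these were Rfx1, Rfx2 and Rfx3, while the windows of Rfx4, Rfx5 and Rfxank did not hold it. Among the other Rfx genes the window of Rfx6 held it. A forkhead core, GTAAACA on either strand, occurred in 3.65% of all windows and in 0 of the 6 members. A match is no proof of binding, and letters missing from a window say nothing of the factor. The member matches are shown with 5 from other genes, picked with their ratios known to show genes on both sides of 0. Capitals mark each half-site, and the 2 in Spag16 are separate half-site matches.
Rfx1, chr8:84066825-84066854: tgggtagcaacaGTTGCCccggtgagggaa
Rfx2, chr17:56831107-56831136: agcttggtaaccGTTGCCgggcgcaacgcc
Rfx3, chr19:28011118-28011147: gttatagcaaccGTTGCCttgtgaatcaag
Spag16, chr1:69826855-69826884: actaGGCAACgcGTTGCCgtagtaactgcg
Tekt1, chr11:72361880-72361909: tgcgtccgtccgGTTGCCatagagaccgca
Deup1, chr9:15627908-15627937: ccgcgtctccatGGCAACccactgggaacc
Ift57, chr16:49699195-49699224: gaggcgggtctgGTTGCCgtggtgaccggc
H2-Aa, chr17:34287888-34287917: aagtctgcagctGGCAACtttgacgtcatc
All are written in the direction of transcription. Rfx1, Spag16 and Ift57 lie on the plus strand of the genome and the other 5 on the minus strand. The half-site begins 2 bases into the Rfx1 transcript, at position −116 from the Rfx2 start and 32 bases into the Rfx3 transcript.

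Genes with a half-site had ratios of every kind. The 3 members had −0.05 (Rfx1), 0.17 (Rfx2) and −0.19 (Rfx3). Tekt1 stood at −1.37 ± 0.24, Spag16 at −0.57 ± 0.32 and Deup1 at −0.78 ± 0.23, while H2-Aa lay above 0 at 0.62 ± 0.23. Ift57 had a median of 0.08 ± 0.20 over 4 probes that ran from −0.71 to 0.17. The half-site was present in 15 of 28 primary cilium genes and in 10 of 20 motile cilium genes with a window. The 14 detected primary cilium genes that hold it had a median of −0.07, with 0 at least 2-fold lower. The 9 detected motile cilium genes that hold it had a median of −1.37, with 5 at least 2-fold lower. All 21 detected genes of the motile list, with or without a half-site, had a median of −1.12, with 11 at least 2-fold lower. Over the array the 1945 detected genes with a half-site had a median of 0.004, and 2.72% of them were at least 2-fold lower, against 1.48% of the 13447 detected genes with a window. None of these differences was tested.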

How the data were processed

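Lung lobe RNA of 1 heterozygous and 1 homozygous embryo (100 ng each, amplified in 1 round) was hybridised to 1 Agilent array, which was deposited as 2 copies of the same scanner file and counts as 1 measurement. Spot and background intensity values were deposited as read by Agilent Feature Extraction 9.5.3.1 (submitters' processing notes). The processed intensity was detrended and dye-normalized by the software, per the file headers. The deposited log ratio is log10 of red (Cy5, homozygous) over green (Cy3, heterozygous), with an error and a p-value from the software's error model, per the file headers; the p-value was not used. The software's flags for dim and outlier spots served as filters. The series matrix the authors deposited holds the processed intensity times 1.68 with a floor of 15 and medians of 139.8 and 138.8, as found by comparison with the scanner values; the reason for the factor is unknown.

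Mean signals were corrected by normexp (offset 50), then a loess curve was removed from the array's log ratios, fitted without control spots (limma 3.58.1 in R 4.3.3), after a check on simulated data. Of 43379 gene spots, 169 outliers were left out and 0 were saturated; 69.0% were well above background in the heterozygous and 75.6% in the homozygous channel. Probes needed more than a 0.5 share of spots above background in either channel, and gene values are medians over such probes. The offset understates changes of dim probes, which touches Rfx2 to Rfx5. Probes were named through accession (24372), symbol (6300) or synonym (2425) in RefSeq annotation (GRCm38.p6), and 8070 kept the file's name. Positions of probes are mm8, per the file headers. Motifs were chosen after the data had been seen, and the X-box half-site replaced a longer X-box pattern that matched in no member window. A bound sets the level in the bright channel against the higher of the dim channel's own level and the lowest level well above background there. Python 3.11.15, numpy 2.4.6, pandas 2.3.3 and matplotlib 3.10.9 were used for the rest.

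Members and gene lists were chosen with earlier results of these data known. Named genes are the members, the other Rfx genes, Foxj1, and in each list the genes at least 2-fold lower or higher with the lowest and the highest measured in both channels, except where stated. No likeness of patterns is given, as 2 channels give none. The precision is limited by the single array, and 10 alternatives were run.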

Additional observations from a re-analysis of the deposited data

How the results depend on the processing

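The median of the 7 Rfx genes moved by less than their median scanner error under each of the 10 alternatives, between −0.04 without a filter on dim probes and 0.17 with median centring, and the counts of 2-fold changes among them stayed at 0. Single genes moved by more than their own error in 5 values: with median centring Rfx1 (0.24), Rfxank (0.53) and Rfxap (0.50), and Rfx4 with the log ratio of the scanner or with the series matrix (0.41 in both). Median centring raised the median of all genes to 0.22; set against that median, Rfx2 and Rfx5, which stood above it under the other 9 alternatives, lay at −0.09 and −0.05. Among lists, the count of motile cilium genes at least 2-fold lower was 11, but 17 with the scanner log ratio or series matrix and 6 of 12 with the names in the file, which miss updated symbols. The list's median was −0.81 without a filter on dim probes. With median centring 1 partner of Foxj1 and Rfx was 2-fold higher, and the medians of the class II genes and class II promoter partners were 0.37 and 0.56. Over all genes the split of 398 lower to 122 higher became 302 to 724 with median centring, 773 to 221 with an offset of 0, 1143 to 593 with the scanner log ratio and 1139 to 457 with the series matrix. No paired analysis was possible because each group holds 1 sample and no result comes from a test. Signal over background limits Rfx3, Rfx4 and Rfx5 most.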
